A study of Sus scrofa domesticus with 34 samples.

Results

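FBXO32, TRIM63, FOXO1 and FOXO3 were taken by symbol and Ensembl identifier (ENSSSCG00000005981, ENSSSCG00000027684, ENSSSCG00000009370 and ENSSSCG00000004387) from 34 pig libraries labelled muscle. They are 4 of the 31907 genes with a count line, and all 4 were among the 13974 genes that passed the filter on low counts. The pigs (Sus scrofa domesticus) were females and castrated males on 4 vitamin D diets, given in international units (IU) per kg of feed in the grower and then the finisher phase. The standard diet held 2000 and then 1500 IU of cholecalciferol (vitamin D3; 8 libraries, 4 of each sex). The increased diet held 3000 and then 2500 IU of cholecalciferol (10 libraries, 6 from females and 4 from castrated males). The combination diet held 2000 and then 1500 IU of cholecalciferol with 1000 and then 1000 IU of 25(OH)D, the 25-hydroxylated form of the vitamin (8 libraries, 4 of each sex). In the 25(OH)D diet that form stood alone at 2000 and then 1500 IU (8 libraries, 4 of each sex). All animals thus received some form of vitamin D, and the labels used here give no unsupplemented group and no age.

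FBXO32 (atrogin-1, also called MAFbx) is the substrate-binding subunit of a ubiquitin ligase that marks muscle proteins for destruction by the proteasome. TRIM63 (MuRF1) is a RING-type ubiquitin ligase that acts on thick-filament proteins such as myosin heavy chain. Both are widely used as markers of muscle wasting, and their genes are switched on by the transcription factors FOXO1 and FOXO3 when insulin and AKT signalling is low and FOXO proteins enter the nucleus. FOXO activity is set largely by phosphorylation and location of the protein, which transcript counts do not show.

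The libraries carried brain transcripts beside muscle transcripts. Levels are given as CPM, counts per 1 M counts of the library. The library size was taken over the genes that passed the filter and scaled by TMM. MBP (myelin basic protein) lay between 1216 and 7606 CPM, STMN2 (a neuronal tubulin regulator) between 1045 and 2806 CPM, and ACTA1 (skeletal muscle actin) between 443 and 3831 CPM. Summed over marker lists, 10 neuron genes gave 4527 to 9227 CPM and the 18 of 27 skeletal muscle genes that passed the filter gave 533.7 to 3030 CPM. That muscle list leaves out ACTA1 and TNNC2 (fast skeletal troponin C), which together gave 738.8 to 5620 CPM. In such bulk samples, fewer cells of a type and less RNA per cell cannot be told apart. Counts assigned to genes came to 4.08 to 13.2 M (mega counts) in the 24 libraries with deposited file numbers 1 to 24, 16.8 to 30.4 M in the 5 with numbers 25 to 29, and 1.34 to 2.69 M in the 5 with numbers 30 to 34. The last run held 4 combination libraries, 1 25(OH)D library and none of the other diets. Numbers 25 to 29 held 3 standard, 1 combination and 1 increased library and no 25(OH)D library. Diet and run are thus partly confounded, for the standard as well as the combination diet. A run here is a stretch of file numbers, since the labels used here name no batch. Results that rest on numbers 30 to 34 are given without them.

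FBXO32 had the highest mean CPM of the 4 genes. Each read of this 3′ method marks 1 transcript end, so that CPM does not grow with transcript length. Reads whose end lies outside an annotated feature were not counted for any gene, and CNP, a myelin enzyme, averaged 0.250 CPM beside 3404 CPM of MBP, so that the order of the 4 genes is one of counted reads and may not be that of their transcripts. FBXO32 lay between 68.5 and 248.7 CPM with a median of 135.5 (mean 140.5 ± 48.8, SD, n = 34). TRIM63 lay between 4.71 and 27.01 CPM with a median of 9.31 (mean 11.6 ± 6.26, SD, n = 34). Both ligases were detected in every library, from 157 to 3244 counts for FBXO32 and from 18 to 398 counts for TRIM63, and every FBXO32 value lay above every TRIM63 value.

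FOXO3 lay between 76.9 and 153.9 CPM with a median of 103.0 (mean 108.6 ± 17.8, SD, n = 34). FOXO1 lay between 18.2 and 74.8 CPM with a median of 46.4 (mean 45.7 ± 15.5, SD, n = 34). FOXO3 exceeded FOXO1 in all 34 libraries, since the lowest FOXO3 value was above the highest FOXO1 value, whereas FBXO32 and FOXO3 overlapped. The remaining family members were lower, FOXO4 with a mean of 26.1 CPM and FOXO6, a FOXO factor of the brain, with 5.79 CPM. Among paralogs of the ligases, FBXO25, the closest relative of FBXO32, averaged 53.9 CPM and TRIM54 2.32 CPM. TRIM55 was at 0 in 20 libraries and did not pass the filter.

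The diets were compared with edgeR's quasi-likelihood test over all 34 libraries, with diet and sex as terms. None of the 4 genes passed an adjusted p of 0.05 in any of the 4 diet contrasts. For FBXO32 the lowest, median and highest CPM were 72.1, 135.6 and 227.4 on the standard diet (mean 142.2 ± 60.5, SD, n = 8) and 69.7, 133.1 and 243.9 on the increased diet (139.2 ± 54.0, n = 10). On the combination diet they were 68.5, 138.3 and 189.8 (134.8 ± 34.8, n = 8) and on 25(OH)D alone 80.7, 135.1 and 248.7 (146.3 ± 50.2, n = 8). The 4 ranges overlapped almost entirely. Relative to the standard diet, the log2 difference was 0.03 on the increased diet (95% interval -0.40 to 0.46), -0.01 on the combination diet (-0.46 to 0.45) and 0.07 on 25(OH)D alone (-0.38 to 0.52). The upper bounds of these intervals, as folds, were 1.37, 1.36 and 1.44. Without file numbers 30 to 34, which hold 4 of the 8 combination libraries, FBXO32 gave -0.16 for the combination against the standard diet (edgeR adjusted p = 0.920) and -0.20 for combination minus increased (adjusted p = 1.00), and within file numbers 1 to 24 the first was -0.27 (adjusted p = 0.805). Over the 11 alternatives the first ran from -0.27 to -0.0012 and none passed the threshold. Within file numbers 1 to 24 the increased and 25(OH)D diets differed from the standard diet by -0.099 and -0.10, reversed in sign and not past the threshold.

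For TRIM63 the lowest, median and highest CPM were 5.58, 8.47 and 27.01 on the standard diet (mean 12.2 ± 7.61, SD, n = 8), 5.12, 9.05 and 21.9 on the increased diet (10.7 ± 5.91, n = 10), 6.21, 9.35 and 26.3 on the combination diet (12.7 ± 7.01, n = 8) and 4.71, 9.16 and 20.7 on 25(OH)D alone (10.9 ± 5.40, n = 8). Each diet held libraries from near the bottom to near the top of the whole range. The differences from the standard diet were -0.18 (95% interval -0.86 to 0.49), 0.04 (-0.68 to 0.77) and -0.20 (-0.92 to 0.52) on the log2 scale. These were the widest intervals among the 4 genes.

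FOXO1, which drives both ligases in wasting muscle, had a lowest, median and highest CPM of 20.2, 43.6 and 74.8 on the standard diet (mean 42.1 ± 18.9, SD, n = 8), 19.2, 48.4 and 71.2 on the increased diet (46.6 ± 14.2, n = 10), 18.2, 43.2 and 53.9 on the combination diet (42.1 ± 11.4, n = 8) and 23.7, 56.6 and 73.8 on 25(OH)D alone (51.6 ± 17.6, n = 8). Its log2 difference of 25(OH)D alone from the standard diet, 0.30 (95% interval -0.22 to 0.83), was the largest of the diet differences of the 4 genes, and the groups overlapped. The increased and combination diets differed from the standard diet by 0.18 (-0.31 to 0.68) and 0.02 (-0.51 to 0.55).

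FOXO3 varied least between animals. Its lowest, median and highest CPM were 76.9, 98.4 and 143.9 on the standard diet (mean 107.5 ± 23.2, SD, n = 8), 91.9, 103.0 and 153.9 on the increased diet (107.5 ± 18.8, n = 10), 91.2, 113.8 and 137.8 on the combination diet (111.8 ± 15.9, n = 8) and 95.8, 104.2 and 140.1 on 25(OH)D alone (108.0 ± 15.1, n = 8). The ranges overlapped, and the log2 differences from the standard diet were -0.01 (95% interval -0.25 to 0.22), 0.06 (-0.20 to 0.31) and -0.00 (-0.25 to 0.25).

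**Figure D1:**
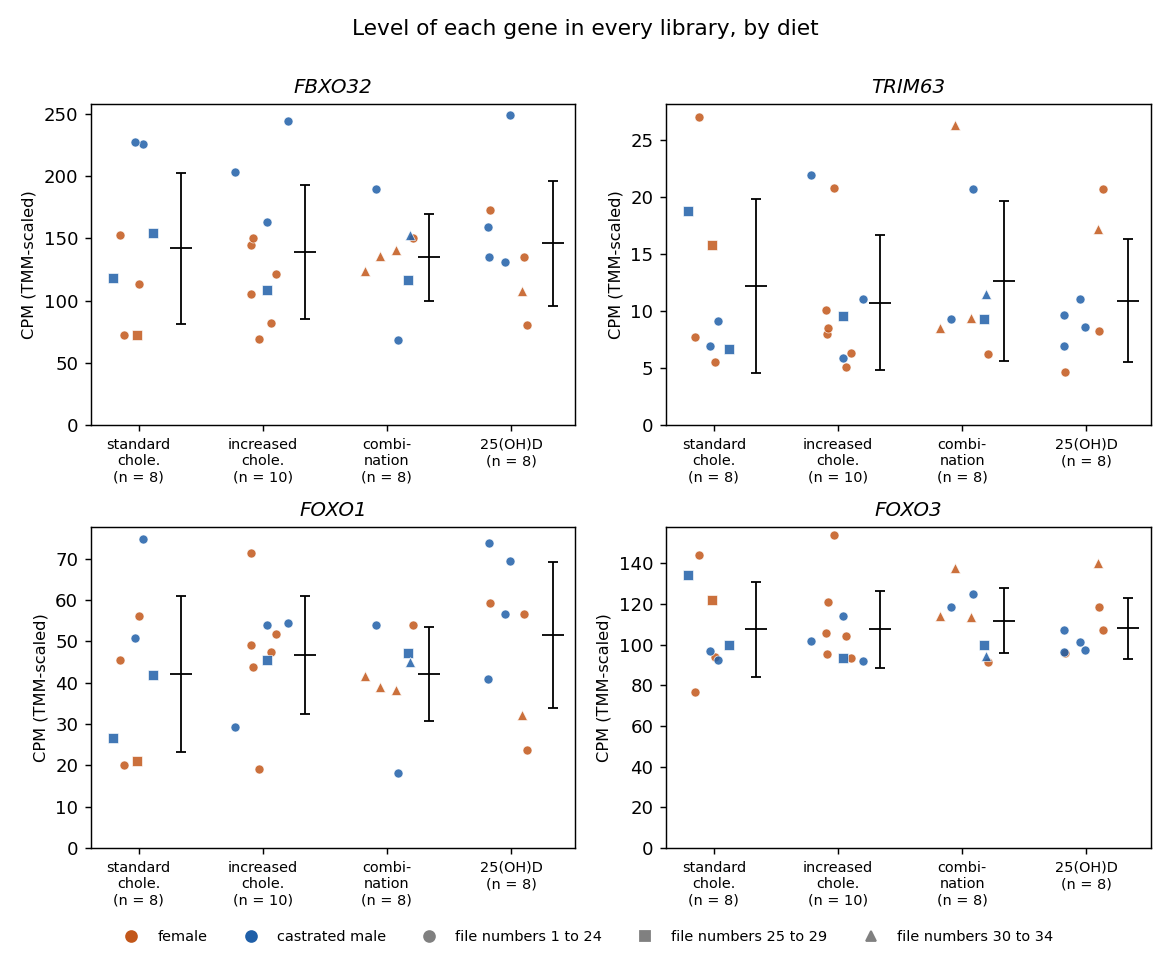
Level of each gene in CPM (vertical axes) by diet (horizontal axis), with 1 point per library and the mean ± SD per diet. FBXO32 spans 68.5 to 248.7 CPM and the 4 diets overlap for all 4 genes.

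Adjusted p-values of the 4 genes ran from 0.854 to 1.00 over the 4 contrasts by edgeR's quasi-likelihood test with Benjamini-Hochberg adjustment. This stood against a background of 0 called among 13974 genes tested (0%) in each contrast, where 1084 (increased against standard), 612 (combination against standard), 444 (25(OH)D against standard) and 572 (combination against increased) genes had an unadjusted p under 0.05 and 698.7 would be expected with no difference at all. DESeq2 and limma-voom also called 0 genes in each contrast. The combination minus increased difference, which compares a mixed with a single source of vitamin D, was -0.04 for FBXO32 (95% interval -0.47 to 0.39), 0.23 for TRIM63 (-0.47 to 0.92), -0.16 for FOXO1 (-0.67 to 0.34) and 0.07 for FOXO3 (-0.17 to 0.31). The 3 contrasts with the standard diet share its 8 libraries. A test for any difference among diets gave unadjusted p-values of 0.982 for FBXO32, 0.858 for TRIM63, 0.599 for FOXO1 and 0.942 for FOXO3, with 0 genes called in all (0%; 924 at an unadjusted p under 0.05, edgeR). A test for diet effects that depend on sex gave 0.195, 0.661, 0.575 and 0.912, again with 0 genes called (0%; 375 unadjusted).

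No other gene of the pathway passed the test with diet either. None of the 13 tested atrophy ligases, 19 FOXO targets, 19 genes of insulin, AKT and AMPK signalling, 10 of myostatin and activin signalling, 10 of the glucocorticoid response, 4 FOXO genes, 3 core subunits of the SCF ligase or 2 ligase paralogs passed the test in any diet contrast. The median log2 difference of the atrophy ligases was -0.02, -0.01 and 0.01 for the increased, combination and 25(OH)D diets against the standard diet, beside medians of 0.01, -0.00 and -0.01 over all genes tested. The FOXO targets had medians of 0.08, 0.01 and -0.10 in the same order. The smallest unadjusted p-values in these lists belonged to NEDD4, a ubiquitin ligase (0.94 on the combination against the standard diet, p = 0.00839, edgeR adjusted p = 0.999), to DDIT4, an inhibitor of mTORC1 signalling (0.70 in the same contrast, p = 0.00976, adjusted p = 0.999), and to SESN3, a FOXO-driven stress gene (0.40 on the increased against the standard diet, p = 0.00977, adjusted p = 0.622).

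Whether FBXO32 followed muscle content or the brain region in a library was tested next, with 2 scores. The muscle score was the mean log2 CPM of ACTA1 and TNNC2. It ran from 8.50 to 11.35 (SD 0.63). The regional score was the mean log2 CPM of CBLN1 and CBLN3, cerebellins abundant in cerebellar granule cells, minus that of TBR1 and FEZF2, transcription factors of cerebral cortex neurons. It ran from 2.40 to 9.76 (SD 2.22). The scores were weakly related to each other (r = -0.13, n = 34), and both entered 1 edgeR model together with diet and sex, each in units of its SD.

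FBXO32 fell with the regional score and did not pass the test for the muscle score. Per SD of the muscle score its log2 level changed by 0.14 (95% interval -0.01 to 0.29, p = 0.0749, edgeR adjusted p = 0.356). Per SD of the regional score it fell by 0.21 (interval -0.36 to -0.07, edgeR adjusted p = 0.0138). The sum of both terms was -0.07 (interval -0.30 to 0.15, adjusted p = 0.665), so that the sizes of the 2 opposite terms were not separable. Against the background, 1.82% of all genes were called higher and 0.472% lower with the muscle score, and 19.5% higher and 19.1% lower with the regional score, which makes a regional call a common one. The regional term of FBXO32 did not pass the test in the 24 libraries of file numbers 1 to 24 (-0.19, adjusted p = 0.132).

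As plain correlations over the 34 libraries, FBXO32 and the muscle score gave r = 0.36 and rho = 0.32 (permutation p = 0.0395 and 0.0636, adjusted over 8 relations 0.0631 and 0.127). Without the 2 libraries farthest from the median muscle score (standard replicate 1 and combination replicate 8), r was 0.25 (permutation p = 0.164). Within file numbers 1 to 24 it was 0.55 (adjusted permutation p = 0.00976) and without numbers 30 to 34 it was 0.49 (adjusted permutation p = 0.00909). The 5 libraries of numbers 30 to 34 had muscle scores of 10.78 to 11.35, in the upper part of the range, with FBXO32 between 107.8 and 152.5 CPM. Leaving out those 5 libraries thus brought this correlation past the threshold.

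FBXO32 and the regional score gave r = -0.50 but rho = -0.26 (permutation p = 0.00222 and 0.135, adjusted 0.00444 and 0.216). Without the 2 libraries farthest from the median regional score (standard replicate 1 and increased replicate 1), r was -0.34 (permutation p = 0.0506, adjusted 0.0810), so that the relation rested in part on those 2. Scaling by total gene counts instead of TMM gave r = -0.32 (adjusted permutation p = 0.103). The relation also changed direction along the score: r was 0.41 among the 20 libraries with a score under 5 (adjusted permutation p = 0.109) and -0.74 among the 14 with a score over 5 (adjusted permutation p = 0.00931), a split chosen after seeing the data. Of the 7 libraries with a score over 7, 5 were among the 6 with the least FBXO32.

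TRIM63 rose with the regional score. Per SD its log2 level changed by 0.62 (95% interval 0.49 to 0.76, edgeR adjusted p = 2.09e-10), a 1.54-fold step, while its muscle term was 0.04 (interval -0.11 to 0.19, adjusted p = 0.821). The correlation was r = 0.88 and rho = 0.88 (permutation p = 1e-05 for both, the smallest that 100000 permutations can give; adjusted 2.67e-05 and 4e-05), and r was 0.86 without the 2 farthest libraries. It held on both sides of the split, with r = 0.68 under a score of 5 and 0.73 over it (adjusted permutation p = 0.00680 and 0.00994). The highest TRIM63 value, 27.01 CPM, was in the library with the highest regional score, standard replicate 1, which also had the lowest muscle score.

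FOXO1 fell with the regional score, by 0.47 per SD on the log2 scale (95% interval -0.58 to -0.36, edgeR adjusted p = 3.11e-09), with a muscle term of 0.04 (interval -0.07 to 0.16, adjusted p = 0.747). The correlation was r = -0.86 and rho = -0.66 (permutation p = 1e-05 and 4e-05, adjusted 2.67e-05 and 0.000107), and r was -0.82 without the 2 farthest libraries. As for FBXO32, the fall lay at the high end: r was -0.92 over a score of 5 (adjusted permutation p = 0.00032) and 0.40 under it (adjusted permutation p = 0.109). The lowest FOXO1 values, 18.2, 19.2 and 20.2 CPM, were in the 3 libraries with the highest regional scores (combination replicate 1, increased replicate 1 and standard replicate 1).

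FOXO3 rose with the regional score by 0.17 per SD (95% interval 0.10 to 0.24, edgeR adjusted p = 6.49e-05), and its muscle term was 0.03 (interval -0.04 to 0.11, adjusted p = 0.714). The correlation was r = 0.75 and rho = 0.73 (permutation p = 1e-05 for both, adjusted 2.67e-05 and 4e-05), r was 0.64 without the 2 farthest libraries, and neither side of the split passed the test alone (r = 0.37 and 0.53, adjusted permutation p = 0.121 and 0.0636). All 4 genes were thus called with the regional score, TRIM63 and FOXO3 upward and FBXO32 and FOXO1 downward. The ligase pair and the FOXO pair each split in direction.

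**Figure D2:**
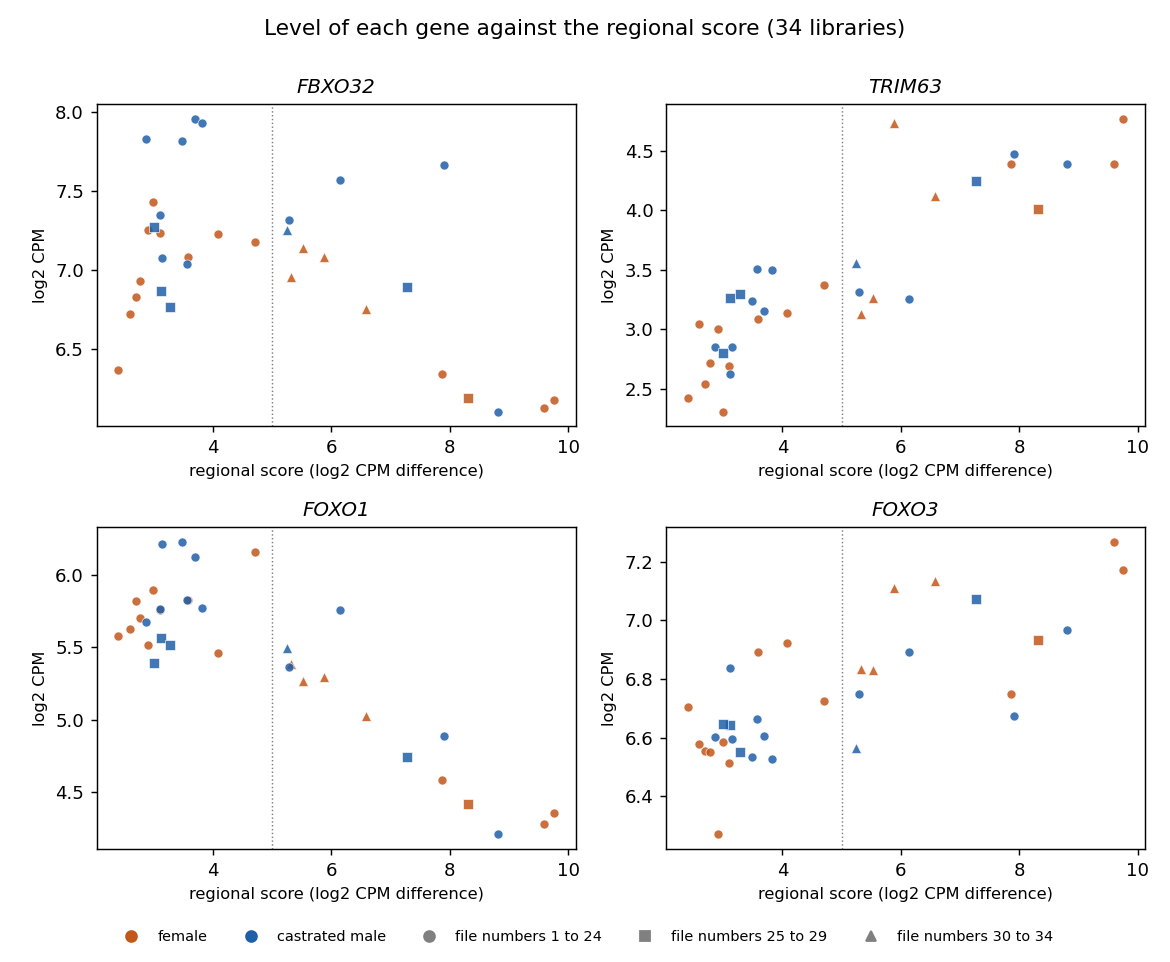
Log2 CPM of each gene (vertical axes) against the regional score (horizontal axes, a log2 difference), 1 point per library. TRIM63 and FOXO3 climb along the score (r = 0.88 and 0.75), FOXO1 drops at its high end (r = -0.86), and FBXO32 is spread widely below a score of 5.

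Of the 13 atrophy ligases tested, 3 rose and 3 fell with the regional score, beside the background of 19.5% and 19.1%. TRIM63, TRIM32 (a ligase of thin-filament and desmin turnover, 0.35 per SD, edgeR adjusted p = 2.49e-08) and FBXO21 (0.25, adjusted p = 0.000143) rose. FBXO32, FBXO40 (an F-box ligase that targets the insulin receptor substrate IRS1, -0.45, adjusted p = 0.00788) and FBXO31 (-0.20, adjusted p = 0.000109) fell. FBXO25 rose by 0.17 (adjusted p = 0.0122), opposite to its paralog FBXO32. The SCF core subunits SKP1, CUL1 and RBX1, with which FBXO32 forms its ligase, were called in neither direction.

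Among the FOXO genes, FOXO6 fell by 0.72 per SD of the regional score (edgeR adjusted p = 3.62e-08) and FOXO4 was not called (0.02). With the muscle score FOXO4 alone rose (0.32 per SD, adjusted p = 0.00156). It was the only gene of the 8 pathway lists called with that score. Of 18 tested skeletal muscle genes, 15 rose with it, beside 1.82% of all genes, and the score is itself made of the muscle genes ACTA1 and TNNC2.

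FOXO targets were called with the regional score in 10 of 19 cases, 8 higher and 2 lower, where 19.5% of all genes were called higher and 19.1% lower. The list median was 0.02 beside 0.01 over all genes tested. CCNG2 (a cyclin that restrains the cell cycle, 0.63 per SD, edgeR adjusted p = 3.04e-10), BCL6 (a transcriptional repressor, 0.42, adjusted p = 3.70e-13) and SESN1 (a sestrin that restrains mTORC1, 0.26, adjusted p = 5.58e-05) were among those that rose. PDK4 (a kinase that shuts off pyruvate dehydrogenase, -0.31, adjusted p = 0.00797) and SOD2 (mitochondrial superoxide dismutase, -0.15, adjusted p = 0.0349) fell with FBXO32 and FOXO1.

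Upstream of the FOXO factors, 5 of 19 genes of insulin, AKT and AMPK signalling rose and 2 fell, beside the same 19.5% and 19.1% of all genes. IRS1, an adaptor of the insulin receptor, rose by 0.35 per SD of the regional score (edgeR adjusted p = 0.00211) and SIRT1, a deacetylase that acts on FOXO proteins, by 0.33 (adjusted p = 0.000491). AKT2, a kinase that phosphorylates FOXO proteins, rose by 0.26 (adjusted p = 0.00287), and PIK3R1, a regulatory subunit of PI3-kinase, fell by 0.24 (adjusted p = 8.08e-06). Of 10 glucocorticoid response genes, 2 rose and 1 fell, against that same background: NR3C1, the glucocorticoid receptor, rose by 0.23 (adjusted p = 0.000792), KLF9 rose by 0.13 (adjusted p = 0.00611) and ZBTB16 had -0.44 (adjusted p = 6.16e-10). None of 10 myostatin and activin genes was called.

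Over the 11133 genes with a symbol that it was compared with, FBXO32 was most like genes of myelin and oligodendrocytes. The 5 highest correlations of log2 CPM over the 34 libraries were with MBP (r = 0.90), ATP8A1 (a phospholipid flippase, 0.89), PLEKHG3 (0.86), TTYH2 (0.85) and MOG (myelin oligodendrocyte glycoprotein, 0.84). The 5 most opposite were SYT1 (the calcium sensor of synaptic vesicles, -0.80), GPR158 (-0.79), STMN2 (-0.78), DLGAP1 (a postsynaptic scaffold, -0.78) and PITPNA (-0.78). ACTA1 came at rank 1377 with r = 0.36 and TNNC2 at rank 1688 with 0.32. CBLN1 and CBLN3 came at ranks 10294 and 10300, each with -0.47. These are descriptions over libraries that share a source of variation in composition.

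Of 12 lists of cell type markers, the oligodendrocyte list had the highest correlation with FBXO32. FBXO32 gave r = 0.87 with the mean log2 CPM of its 5 genes that passed the filter (MBP, MOG, MAG and OLIG1 among them), -0.68 with neurons, 0.63 with microglia and 0.24 with the skeletal muscle list (permutation p adjusted over 60 relations 0.00012, 0.0002, 0.00054 and 0.300). The mean of the 5 genes is called the oligodendrocyte score below (SD 0.59). It was chosen as a term after seeing the data, so that its tests on these libraries are not independent of that choice.

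FBXO32 and the oligodendrocyte score gave r = 0.87 and rho = 0.83 (permutation p = 1e-05 for both, adjusted over 4 relations 2e-05 and 4e-05), and r was 0.83 without the 2 libraries farthest from the median score (combination replicate 1 and standard replicate 6). It was 0.88 within file numbers 1 to 24 and 0.88 without numbers 30 to 34. Under a regional score of 5 it was 0.72 (adjusted permutation p = 0.00152) and over it 0.95. Among females r was 0.85 and among castrated males 0.88. The relation therefore had the same direction on both sides of the regional split, where that with the regional score had not. So had the relation of FBXO32 with the muscle score, with r = 0.41 under 5 and 0.58 over it (adjusted permutation p = 0.109 and 0.0421).

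**Figure D3:**
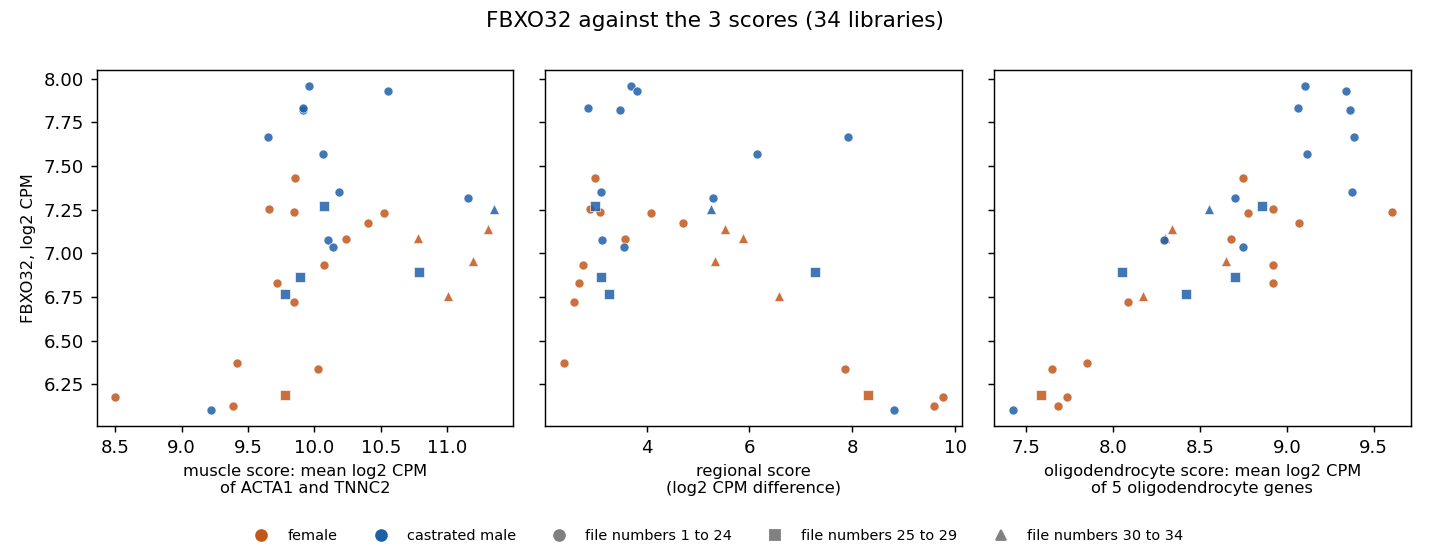
Log2 CPM of FBXO32 (vertical axes) against the muscle, regional and oligodendrocyte scores (horizontal axes, log2 units), 1 point per library. Pearson's r is 0.36 with the muscle score, -0.50 with the regional score and 0.87 with the oligodendrocyte score.

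The 6 libraries with the least FBXO32 were the same 6 that had the lowest oligodendrocyte scores. They held 68.5 (combination replicate 1), 69.7 (increased replicate 1), 72.1 (standard replicate 1), 72.8 (standard replicate 6), 80.7 (25(OH)D replicate 2) and 82.4 CPM (increased replicate 6), with scores of 7.42 to 7.85. In 5 of the 6 the regional score was over 7, a value that 7 libraries passed in all, whereas increased replicate 6 had the lowest regional score of all, 2.40. Increased replicate 8 had a regional score of 7.91 with an oligodendrocyte score of 9.39 and 7017 CPM of MBP. Its FBXO32 level was 203.4 CPM, the fifth highest. These 2 libraries are examples, and the oligodendrocyte and regional orders were not compared by a test. Other libraries went against the oligodendrocyte order. Combination replicate 2 had the highest score (9.60) but ranked 22 of 34 from the lowest in FBXO32 (150.4 CPM). Standard replicate 5 ranked 23 in the score and 10 in FBXO32 (113.7 CPM).

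With all 3 scores, diet and sex in 1 edgeR model, FBXO32 rose by 0.41 on the log2 scale per SD of the oligodendrocyte score (95% interval 0.30 to 0.51, edgeR adjusted p = 7.23e-07), a 1.33-fold step, and ranked 32 of 13974 genes by p-value. FOXO1 rose by 0.21 (interval 0.09 to 0.33, adjusted p = 0.0393). TRIM63 gave -0.04 (interval -0.22 to 0.14, adjusted p = 0.883) and FOXO3 -0.04 (interval -0.13 to 0.05, adjusted p = 0.700). The background was 2.53% of genes higher and 1.00% lower. The term of FBXO32 stayed past the threshold in each of the 34 fits that left out 1 library (0.39 to 0.45). That of FOXO1 lost its call in 9 of those 34 fits (largest adjusted p 0.107) and in the 24 libraries of file numbers 1 to 24 (0.18, adjusted p = 0.383). The score was chosen after its correlation with FBXO32 in these libraries was seen. The rank, p-value and refits of FBXO32 are therefore not an independent test.

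Beside the oligodendrocyte score, the regional term of FBXO32 was -0.00 (95% interval -0.09 to 0.09, edgeR adjusted p = 0.999), where it had been -0.21 without it. Its muscle term was 0.10 (interval 0.01 to 0.19, p = 0.0292, adjusted p = 0.228). The regional terms of the other 3 genes stayed past the threshold, with 0.60 for TRIM63 (adjusted p = 8.11e-08), -0.36 for FOXO1 (adjusted p = 2.86e-06) and 0.15 for FOXO3 (adjusted p = 0.00473). The regional and oligodendrocyte scores were themselves related (r = -0.58, n = 34), so that a regional term with and without the other score describes different comparisons of libraries. The oligodendrocyte score was also chosen for its correlation with FBXO32 in these libraries. A smaller regional term of FBXO32 beside it was thus partly built in and is not an independent result. Whether the transcript comes from oligodendrocytes was not tested, since these are bulk libraries.

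**Figure D4:**
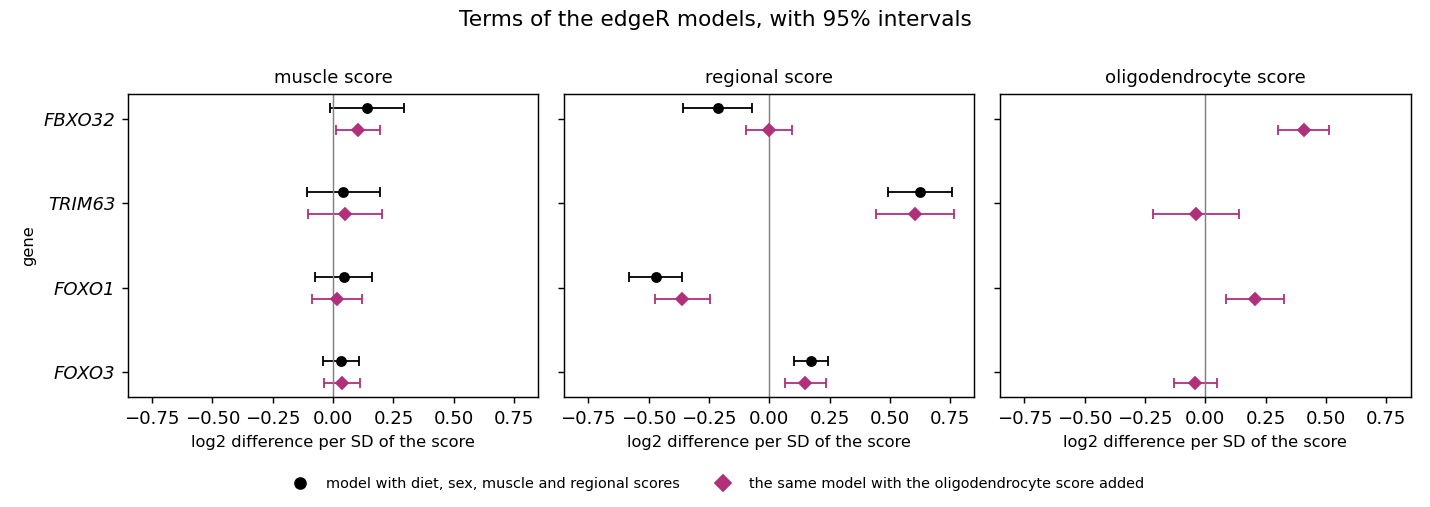
Log2 change per SD of each score (horizontal axis) for the 4 genes, with 95% intervals, from the edgeR models. The oligodendrocyte term of FBXO32 (0.41) lies apart from 0, and its regional term goes from -0.21 to -0.00 once that score is in the model. That score was chosen for its correlation with FBXO32 in these libraries, so that neither is an independent result.

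Of the 8 pathway lists, PDK4 was the only gene beside FBXO32 and FOXO1 called with the oligodendrocyte score (0.33 per SD, edgeR adjusted p = 0.0474). PDK4 is a FOXO target of fasting muscle, and in the plain correlations it gave r = 0.67 with FBXO32, rank 97 of 11133. All 5 genes of the score rose with it by construction. Of the other marker lists, 3 of 7 microglia genes and 2 of 6 astrocyte genes rose with it and 3 of 10 neuron genes fell (STMN2, SYT1 and ENO2), beside 2.53% of all genes higher and 1.00% lower, and their part in the result for FBXO32 was not tested.

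The other 3 genes had their own neighbours. TRIM63 was most like DAO (D-amino acid oxidase, r = 0.90), USP3, DPF3 and RELN (reelin, a granule cell glycoprotein, 0.89), and most opposite to CRH (corticotropin-releasing hormone, -0.89), STXBP6, THRB, STUM and MSC. FOXO1 was most like PAMR1 (0.92), RASGEF1B, CLU (clusterin), MRAS and RNASE1, and most opposite to ITPR1 (an inositol trisphosphate receptor abundant in Purkinje cells, -0.93), ETV1, ZNF385D, DUSP5 and TMEM178A. FOXO3 was most like CWC22 (a splicing factor, 0.84), SMC3 (a cohesin subunit), JMJD1C, BICD1 and HLTF, and most opposite to RILPL1 (-0.79), TMEM74, DUSP22, PRICKLE1 and NECAB3. None of the genes named here was in the skeletal muscle list.

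The 4 genes were related to each other much as their regional terms were signed. FBXO32 and FOXO1 gave r = 0.69 and rho = 0.53 over the 34 libraries (permutation p = 1e-05 and 0.00146, adjusted over 6 pairs 3e-05 and 0.00219), and r was 0.60 without the 2 libraries farthest from the median FBXO32 level. TRIM63 and FOXO3 gave r = 0.66, whereas TRIM63 and FOXO1 gave -0.76, FOXO1 and FOXO3 -0.65, FBXO32 and FOXO3 -0.50 and FBXO32 and TRIM63 -0.40 (adjusted permutation p from 3e-05 to 0.0191). The negative relation of the 2 ligases was the weakest: rho was -0.30 (permutation p = 0.0835), r was -0.28 without the 2 libraries farthest from the median FBXO32 level (permutation p = 0.122), and rho was -0.16 within file numbers 1 to 24 (permutation p = 0.462). FOXO1 and FOXO3 gave -0.57 without the 2 libraries farthest from the median FOXO1 level (permutation p = 0.00066).

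After a straight-line fit on the regional score was taken out of each gene, 5 of the 6 pairs lay between -0.22 and 0.11. Only FBXO32 and FOXO1 passed the test (r = 0.60, adjusted permutation p = 0.00114). Both changed direction along that score, with r of 0.41 and 0.40 under 5 and -0.74 and -0.92 over it. A straight line does not remove such a shared shape, so that this test cannot set the pair apart from the regional score. With sex and the muscle score taken out as well, FBXO32 and FOXO1 gave 0.55 (adjusted permutation p = 0.00462). With the regional and oligodendrocyte scores taken out the pair gave r = 0.33 (permutation p = 0.0590, adjusted 0.354) and rho = 0.35 (permutation p = 0.0417, adjusted 0.250). The oligodendrocyte score was chosen for its correlation with FBXO32 in these libraries, so that a lower value was partly built in. Among the 20 libraries with a regional score under 5, r of the pair was 0.39 (adjusted permutation p = 0.523), and among the 14 over it 0.86 (adjusted permutation p = 0.00162). FBXO32 and TRIM63, which rise together in wasting muscle, gave 0.11 after the regional score (adjusted permutation p = 0.989).

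FBXO32 averaged less in females than in castrated males, a difference that did not pass the adjusted test. Its lowest, median and highest CPM were 69.7, 122.8 and 172.4 in females (mean 118.4 ± 32.1, SD, n = 18) and 68.5, 156.9 and 248.7 in castrated males (mean 165.4 ± 53.1, SD, n = 16). The groups overlapped, and the 5 libraries with the most FBXO32 were all from castrated males. The log2 difference of females minus castrated males was -0.48 (95% interval -0.79 to -0.17), a level 0.716 times as high, with p = 0.00336 and an edgeR adjusted p of 0.660. Of the Y-linked genes, EIF1AY lay between 0.545 and 6.38 CPM in females and at 6.91 CPM or more in all castrated males except 25(OH)D replicate 1, with 0.794 CPM, where KDM5D was at 6.03 CPM, the highest of the 34. Without that library the FBXO32 difference was -0.50 (adjusted p = 0.529). Over its 9 alternative settings the adjusted p ran from 0.113 to 0.963.

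Of all genes tested, 11 were lower in females (0.0787%) and 0 higher (0%; 358 at an unadjusted p under 0.05 by edgeR, and 1 gene by DESeq2 with adjustment), and none of the 4 genes was among the calls. TRIM63 differed by 0.11 (95% interval -0.39 to 0.61), FOXO1 by -0.19 (-0.55 to 0.17) and FOXO3 by 0.12 (-0.06 to 0.29), with edgeR adjusted p-values of 0.825 to 0.942. PDK4 differed by -0.58 (p = 0.00469, edgeR adjusted p = 0.661), in the direction of FBXO32. The FOXO targets as a list leaned the other way. Of the 19 tested, 14 were above 0, with a median of 0.11 beside 0.00 over all genes.

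Marker lists leaned in different directions between the sexes, and no gene of them passed the test. All 5 tested oligodendrocyte genes were below 0 in females minus castrated males, with a median of -0.38 beside 0.00 over all genes. So were all 6 smooth muscle genes (median -0.74) and all 7 microglia genes (median -0.19), while 9 of 10 neuron genes were above 0 (median 0.14). The lean was not confined to brain and muscle lists. Mean log2 CPM of the liver list was 4.65 in females and 4.21 in castrated males, beside 8.60 and 8.39 for the neuron list. Among the oligodendrocyte genes MOG gave -0.61 (p = 0.00402, edgeR adjusted p = 0.660) and MBP -0.45 (p = 0.0614). With the 3 scores in the model, the FBXO32 difference was -0.20 (95% interval -0.37 to -0.02, p = 0.0266, edgeR adjusted p = 0.963). The oligodendrocyte score among them was chosen for its correlation with FBXO32 in these libraries, so that a smaller difference was partly built in. The part of any list in the sex difference was not tested.

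**Figure D5:**
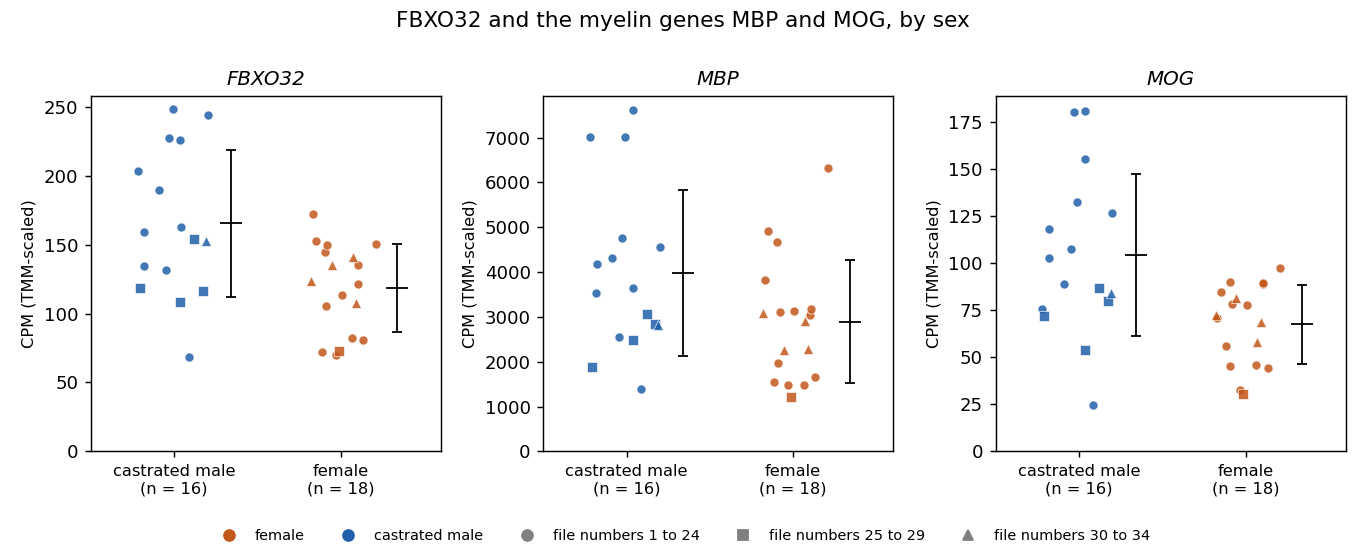
Level of FBXO32, MBP and MOG in CPM (vertical axes) in the 18 libraries from females and the 16 from castrated males (horizontal axis). Each point is 1 library, with the mean ± SD per sex. FBXO32 averages 118.4 CPM in females and 165.4 CPM in castrated males with overlapping ranges.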

How the data were processed

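Gene expression was measured in 34 pig libraries made from Trizol-isolated RNA with a QuantSeq 3′ kit, per the labels' protocols. Each deposited file lists unnormalized read counts for 1 library, made with FastQC, TopHat and HTSeq (DESeq2 is also named), per the submitters' processing notes. Not given in the sources used here are tool versions, genome build, annotation and strand use. The 5 HTSeq category lines were left out (reads outside features 16.4 to 29.9%, ambiguous 3.63 to 4.68%, multiply aligned 11.2 to 20.7% of a library), so that genes with close copies can be undercounted. A table of symbols matched 15029 of 31907 identifiers.

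Counts were scaled by TMM, filtered with edgeR's expression filter by diet and tested with edgeR 4.0.16 (quasi-likelihood, R 4.3.3), adjusted by the Benjamini-Hochberg method over 13974 genes at 0.05. Scores use log2 CPM with a prior count of 2. Correlation p-values are two-sided, from 100000 permutations (SciPy 1.17.1). Alternatives used DESeq2 1.42.0, limma-voom 3.58.1, other scalings, filters, terms, sets of libraries and each library left out. The models were checked on simulated data. For each gene, the 5 most alike and 5 most opposite genes are named, apart from items that are not reported here; pathway genes are named from fixed lists, those called or with the smallest p-values. The members, lists and scores were chosen with earlier results of these data known. Each library is taken as 1 animal. Replicate numbers are in accession order, and p-values measure the spread between these libraries. Precision follows the counts per gene and library given with the levels.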

Additional observations from a re-analysis of the deposited data

Results flagged for a closer look

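Within each diet, the lowest and the highest library of each gene were compared with the rest of that diet by Dixon's ratio, in 16 groups of 8 or 10 libraries, of which chance marks about 1 in 20. FOXO1 was low in combination replicate 1, at 18.2 CPM, where the next lowest library of that diet had 38.3 CPM. That library also had the lowest oligodendrocyte score of the 34 (7.42) and a regional score of 8.81. FOXO3 was high in increased cholecalciferol replicate 1, at 153.9 CPM, where the next highest library of that diet had 121.0 CPM. Its regional score was 9.59, the second highest of the 34.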

How the results depend on the processing

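No paired analysis was possible because the labels carry no replicate numbers that could pair animals across diets. The regional terms of all 4 genes passed the threshold in each of the 34 edgeR fits that left out 1 library (largest adjusted p for FBXO32 0.0386). The oligodendrocyte term of FBXO32 did so in those fits and under its 8 alternatives (0.36 to 0.42, largest adjusted p 0.00111). That score was chosen after seeing these data, so that its refits are not an independent test. No diet contrast called a gene under any of 11 alternatives each. Depth limits TRIM63 most, with 18 counts in its shallowest library. In the values that follow, log2 terms come from edgeR unless another tool is named, a diet alone stands for its difference from the standard diet, and the cause of a change was not tested except where fewer libraries entered.

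With both scores as added terms, FBXO32 gave -0.050 on 25(OH)D and -0.030 on the increased diet, TRIM63 0.018 and 0.051, and FOXO3 0.030 and 0.043; combination minus increased was -0.0071 for TRIM63, 0.021 for FOXO1 and -0.031 for FOXO3, and females minus castrated males -0.10 for TRIM63. With the oligodendrocyte score added as well, the increased diet gave -0.11 for FBXO32, 0.057 for TRIM63 and 0.045 for FOXO3, 25(OH)D gave 0.0059 for TRIM63 and 0.018 for FOXO3, combination minus increased gave -0.017 for TRIM63, 0.038 for FOXO1 and -0.034 for FOXO3, females minus castrated males gave -0.12 for TRIM63, and the regional term of FBXO32 was -0.00011. With a term for file-number runs, FBXO32 gave -0.13 on 25(OH)D and -0.11 on the increased diet, FOXO3 0.018 and 0.017, TRIM63 -0.13 on the combination diet, FOXO3 -0.0055 for combination minus increased, TRIM63 -0.085 per SD of muscle and 0.0077 per SD of oligodendrocyte score, and FOXO1 0.16 for the latter; 2 genes were called higher in females, and 114 higher and 0 lower with the muscle score.

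In file numbers 1 to 24, 25(OH)D gave -0.10 for FBXO32 and 0.047 for FOXO3, the increased diet -0.099 for FBXO32, -0.064 for FOXO1 and 0.11 for FOXO3, and the combination diet -0.27 for FOXO1; females minus castrated males gave -0.026 for TRIM63. There the regional term of FBXO32 was -0.19, the muscle terms of TRIM63 and FOXO3 -0.013 and -0.022, the oligodendrocyte term of FOXO1 0.18, and r with the muscle score 0.55 for FBXO32, 0.54 for FOXO1 and -0.31 for FOXO3. Calls there were 57 higher and 1 lower with the muscle, 150 and 26 with the oligodendrocyte and 1650 higher with the regional score. Without file numbers 30 to 34, TRIM63 gave -0.094 on the combination diet and -0.028 per SD of muscle score, FOXO1 0.21 per SD of oligodendrocyte score, and r with the muscle score was 0.49 for FBXO32, 0.40 for FOXO1 and -0.17 for FOXO3; 98 genes were higher and 1 lower with the muscle and 62 lower with the oligodendrocyte score.

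FOXO3 on 25(OH)D was 0.018 with 2 diets alone, 0.0086 by DESeq2, 0.014 with RLE size factors and 0.0023 with no sex term, where FBXO32 on the increased diet was -0.029. By DESeq2, 1 gene was higher in females, 163 lower with the muscle and 227 lower with the oligodendrocyte score. By limma-voom TRIM63 on the combination diet was -0.014 and 15 genes were lower with the muscle score. With 1 score alone the muscle terms were -0.14 for TRIM63 and -0.0053 for FOXO3, with 132 genes higher and 4 lower; the skeletal muscle list as score gave 154 and 4. Genes lower with the muscle score were 152 with no diet and sex terms and 32 with scores from total gene counts. The oligodendrocyte term of FOXO1 was 0.17 with that score and 0.20 with no filter.

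Among correlations, castrated males alone gave -0.35 for FBXO32 with the regional, -0.024 for FOXO3 with the muscle, and -0.46 for FOXO3 and -0.41 for TRIM63 with the oligodendrocyte score; females alone gave 0.52 for FBXO32 with the muscle score. Scaling by total gene counts gave -0.32 for FBXO32 with the regional, 0.11 for TRIM63 with the muscle, and -0.33 for FOXO3 and -0.34 for TRIM63 with the oligodendrocyte score. Without the 2 farthest libraries FBXO32 gave -0.34 with the regional and TRIM63 0.10 with the muscle score. In the 14 libraries with a regional score over 5, r with the muscle score was 0.58 for FBXO32, 0.75 for FOXO1, -0.41 for FOXO3 and -0.64 for TRIM63, with the oligodendrocyte score -0.53 for FOXO3 and -0.48 for TRIM63, and with the regional score 0.53 for FOXO3. In the 20 under 5, r with the regional score was 0.41 for FBXO32, 0.40 for FOXO1 and 0.37 for FOXO3, with the oligodendrocyte score 0.26 for FOXO1, -0.13 for FOXO3 and 0.15 for TRIM63, and with the muscle score 0.51 for TRIM63.

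Leaving out 1 library at a time, FBXO32 ranged from -0.025 to 0.17 on 25(OH)D, -0.060 to 0.13 on the increased and -0.093 to 0.13 on the combination diet, and from -0.11 to 0.080 for combination minus increased. TRIM63 ranged from -0.41 to 0.071, -0.39 to 0.088, -0.18 to 0.30 and -0.0044 to 0.45 in the same order, from -0.014 to 0.26 for females minus castrated males, and from -0.0050 to 0.066 per SD of muscle score. FOXO1 ranged from -0.080 to 0.17 on the combination diet and from 0.17 to 0.25 per SD of oligodendrocyte score. FOXO3 ranged from -0.056 to 0.069 on 25(OH)D, -0.077 to 0.057 on the increased and -0.0032 to 0.12 on the combination diet. With the muscle score r ranged from 0.26 to 0.40 for FBXO32, -0.048 to 0.22 for FOXO3 and -0.14 to 0.12 for TRIM63. Genes called with the muscle score ranged from 176 to 596 higher and 12 (without combination replicate 1) to 541 lower (596 and 541 without standard replicate 1). With the oligodendrocyte score they ranged from 225 to 394 higher and 54 to 173 lower (225 and 54 without increased replicate 8).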
